A study of Danio rerio with 6 samples.

Results

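Transcripts of 7 genes of contraction and natriuretic peptides were followed in whole tissue of the ventricle. These were the myosin heavy chain genes *vmhc*, *myh7l* and *myh6* and the myosin light chain gene *myl7*. The others were the cardiac troponin T gene *tnnt2a* and the natriuretic peptide genes *nppa* and *nppc*. All 7 are among the 32520 genes of the count table, chosen by gene identifier (6 genes) or by symbol (*myh7l*). The identifier ENSDARG00000068126 had been listed under the name *nppb*, but the gene name table used here calls it *nppc*, which encodes C-type natriuretic peptide. It is therefore described as *nppc*, and the gene that the name table calls *nppb* (ENSDARG00000052958) is given beside it. The name table also calls ENSDARG00000079564 MYH6 and ENSDARG00000079782 MYH7, but for these the listed names *vmhc* and *myh7l* were kept. The symbol *myh7l* stood for ENSDARG00000079782 in a gene table of the study that lists only genes with small p-values, so its call was known when it was chosen.

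The data are RNA-seq libraries from zebrafish hearts, each made from a pool of 3 apexes of the ventricle taken 7 days after cryoinjury (7 dpci), in which a probe cooled in liquid nitrogen kills part of the ventricular wall. Of the libraries, 3 came from *mdka*-KO fish (genotype MDKA KO, allele cn105, made with CRISPR/Cas9; replicates 2, 3 and 4) and 3 from wild-type fish (WT, *mdka*+/+; replicates 1, 2 and 4). All fish were adults of the AB strain, and both genotypes were injured, so there is no uninjured heart among the 6 libraries. The question was how loss of *mdka*, which encodes the secreted growth factor Midkine a, altered transcription in the injured ventricle.

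The sarcomere is the contractile unit of striated muscle, in which heads of thick-filament myosin pull on thin actin filaments. Myosin heavy chains carry the motor, light chains stiffen and regulate its lever, and troponin T anchors the troponin complex, the calcium switch of the thin filament, to tropomyosin. In zebrafish, *vmhc* marks the ventricle, *myh6* the atrium and *myl7* both chambers, and loss of *tnnt2a* gives the silent heart mutant. Atrial and B-type natriuretic peptides, the products of *nppa* and *nppb*, are hormones released by heart muscle under stretch, and their transcripts are widely used markers of cardiac load, whereas C-type peptide is known in mammals mostly from vessels and the nervous system.

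Library totals lay between 18940128 and 25195457 expected counts (estimated reads per gene), and levels are given as CPM, counts relative to the total of a library, after the trimmed mean of M-values (TMM) correction. The targeted gene *mdka* had 81.8, 132 and 139 CPM in *mdka*-KO libraries, against 429, 731 and 1070 CPM in WT libraries, which is the order the genotype labels call for. Among the 3 heavy chain genes, *vmhc* and *myh7l* were abundant in all 6 libraries, whereas *myh6* had at most 0.643% of their summed reads. Other markers of the chambers were not used for this comparison. A gene was called changed at an unadjusted p under 0.05 in edgeR's two-sided quasi-likelihood test, the threshold used by the study, and the Benjamini-Hochberg adjusted p over 17879 tested genes is given beside it. Of all tested genes 12.1% were called, with 6.42% lower and 5.64% higher in *mdka*-KO, and 1 gene (0.00559%) was called after adjustment.

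All 7 genes passed the filter on low counts and had a negative log2 fold change in *mdka*-KO relative to WT. Of these, 3 genes, *myh7l*, *myl7* and *tnnt2a*, were called lower, where 6.42% of all tested genes were. For these the *mdka*-KO and WT libraries did not overlap, as in 8.97% of all tested genes in that direction (17.7% in either direction, 8.75% with *mdka*-KO higher). The call of *myh7l* was known when it was chosen, so it cannot be weighed against these shares. Among the genes chosen by identifier, only *myl7* and *tnnt2a* were called. *tnnt2a* is also among the genes with small p-values that the study listed, so its call could be known beforehand as well. The median log2 fold change was -0.40 over the 7 genes and -0.01 over all tested genes. None of the 7 was called at an adjusted p under 0.05 with edgeR. In whole tissue, fewer heart muscle cells and less transcript per cell cannot be told apart.

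**Figure D1:**
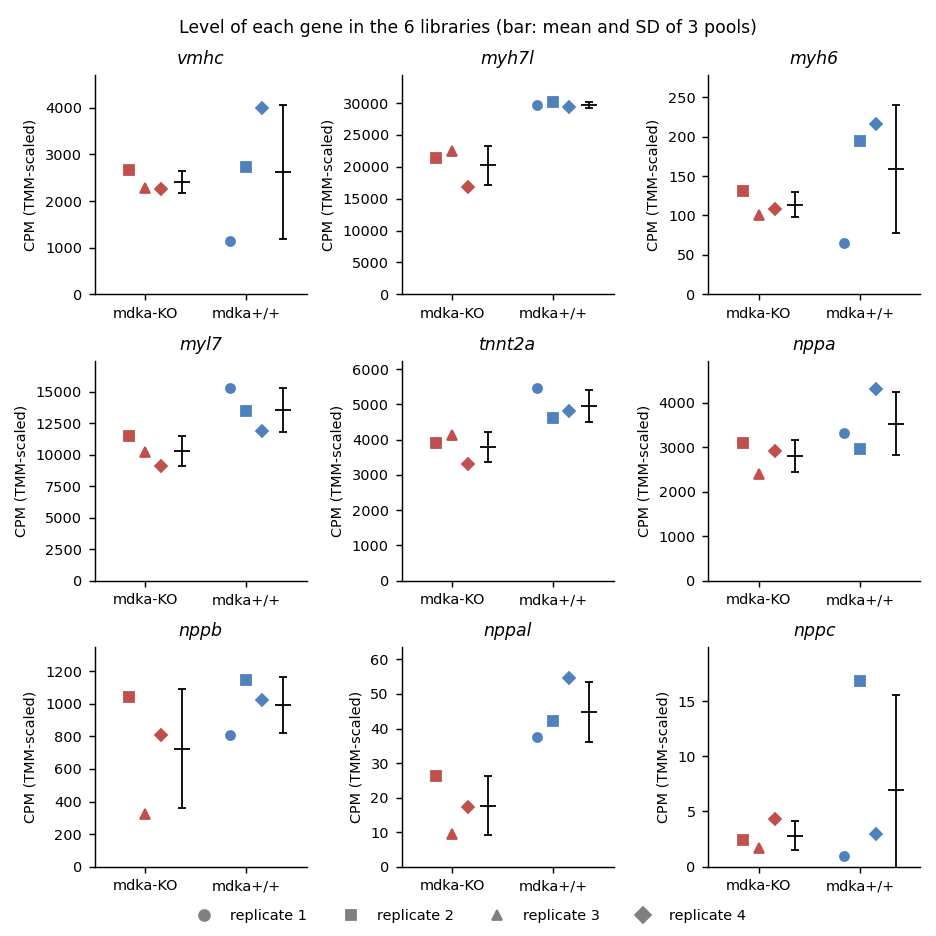
TMM-scaled CPM (y axis, from 0) of the 7 genes and of *nppb* and *nppal* in each library, with *mdka*-KO libraries in red at left and WT libraries in blue at right; marker shapes give the replicate number, and the black bar is the mean with the SD of 3 pools (the part of the *nppc* bar below 0 is not drawn). The groups do not overlap for *myh7l*, *myl7*, *tnnt2a* and *nppal*, and WT replicate 1 is the lowest library for *vmhc*, *myh6* and *nppc*.

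The ventricular heavy chain gene *myh7l* (ENSDARG00000079782) was lower in every *mdka*-KO library than in any WT library. It had 21419, 22559 and 16815 CPM in *mdka*-KO replicates 2, 3 and 4, against 29669, 30121 and 29329 CPM in WT replicates 1, 2 and 4. The WT libraries lay within a narrow band, while *mdka*-KO replicate 4 fell below the other 2 of its genotype. The means were 20265 ± 3041 CPM in *mdka*-KO and 29707 ± 397 CPM in WT (SD, n = 3 pools each), so *mdka*-KO had 68.2% of the WT level (log2 fold change -0.55, SE 0.15, unadjusted p = 0.00626, adjusted p = 0.230, edgeR). The DESeq2 Wald test gave an adjusted p of 0.0150 for *myh7l*, and no other setting tried gave one under 0.05. The call held when any 1 of the 6 libraries was left out, with log2 fold changes between -0.64 and -0.44.

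The other ventricular heavy chain gene, *vmhc* (ENSDARG00000079564), did not pass the test, and its WT libraries differed widely. It had 2672, 2286 and 2264 CPM in *mdka*-KO, against 1144, 2738 and 4002 CPM in WT. The 3 *mdka*-KO values lay inside the WT range, between the low replicate 1 and the higher replicates 2 and 4. The means were 2408 ± 229 CPM in *mdka*-KO and 2628 ± 1432 CPM in WT (log2 fold change -0.13, SE 0.38, unadjusted p = 0.751, adjusted p = 0.954, edgeR). Single WT libraries decided the value: the log2 fold change was 0.31 without WT replicate 4 and -0.49 without WT replicate 1, where *vmhc* was called lower (unadjusted p = 0.0324, edgeR).

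The atrial heavy chain gene *myh6* (ENSDARG00000090637) was low and followed the pattern of *vmhc* across libraries. It had 131, 101 and 109 CPM in *mdka*-KO, against 65.5, 195 and 216 CPM in WT. WT replicate 1 was again the lowest of the 6 and the other WT libraries the highest, so the groups overlapped. The log2 fold change was -0.48 (SE 0.39, unadjusted p = 0.251, adjusted p = 0.718, edgeR), and it was -0.85 without WT replicate 1, where *myh6* was called lower (unadjusted p = 0.000431). Over the 6 libraries the log2 levels of *vmhc* and *myh6* correlated with r = 0.92, and with r = 0.97 after removal of the genotype means, whereas *vmhc* and *myh7l* gave r = -0.02. These correlations describe 6 libraries that share their scaling.

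For *vmhc* and *myh7l*, which neighbour each other on chromosome 2, RSEM gave expected counts that were not whole in all 6 libraries, so each gene shared reads with at least 1 other gene, while the counts of *myh6* were whole. The sum of *vmhc* and *myh7l* was still not whole in 5 of 6 libraries (tolerance 0.005 counts), so some of these reads were divided with genes outside the pair. The summed level of the 3 heavy chain genes removes only the division among themselves. The sum was 24222, 24947 and 19188 CPM in *mdka*-KO, against 30878, 33054 and 33547 CPM in WT. The groups did not overlap, and the *mdka*-KO mean was 70.1% of the WT mean (exact permutation test, two-sided, p = 0.1, the smallest that 3 against 3 libraries allow; Benjamini-Hochberg p = 0.35 over 7 such tests).

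The division of heavy chain reads among the 3 genes, not corrected for transcript length, did not separate the genotypes. The share of *vmhc* was 11.0%, 9.17% and 11.8% in *mdka*-KO, against 3.70%, 8.28% and 11.9% in WT. That of *myh7l* was 88.4%, 90.4% and 87.6% in *mdka*-KO, against 96.1%, 91.1% and 87.4% in WT. The *mdka*-KO shares fell within the WT range for *vmhc* and *myh7l* (exact permutation p = 0.5 for each), and WT replicate 1 held the highest share of *myh7l*. The share of *myh6* was 0.541%, 0.404% and 0.567% in *mdka*-KO, against 0.212%, 0.590% and 0.643% in WT (exact permutation p = 1).

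**Figure D2:**
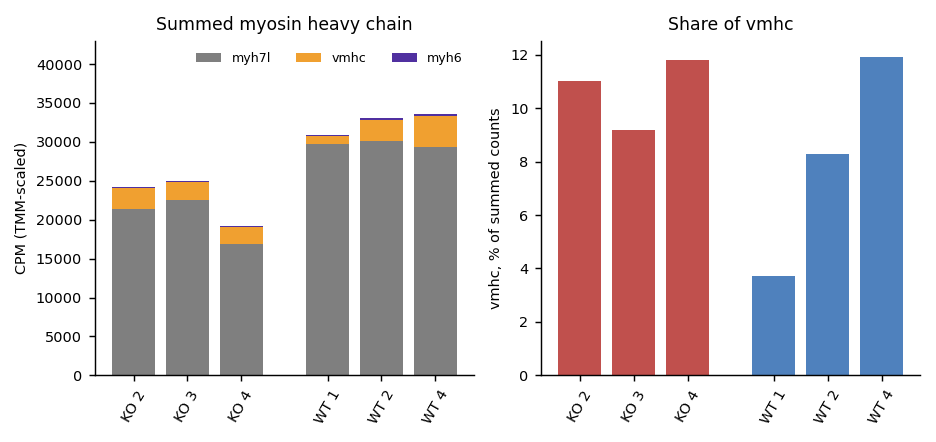
Left, TMM-scaled CPM of *myh7l*, *vmhc* and *myh6* stacked for each library; right, *vmhc* as a percentage of the summed counts of the 3 genes, with the 3 *mdka*-KO libraries left of the 3 WT libraries in both panels. The summed level is at most 24947 CPM in *mdka*-KO and at least 30878 CPM in WT, whereas the *vmhc* share is between 9.17% and 11.8% in *mdka*-KO and between 3.70% and 11.9% in WT.

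The light chain gene *myl7* (ENSDARG00000019096) and the troponin gene *tnnt2a* (ENSDARG00000020610) were both lower in *mdka*-KO. *myl7* had 11528, 10230 and 9121 CPM in *mdka*-KO, against 15298, 13504 and 11853 CPM in WT. The groups did not overlap, but the highest *mdka*-KO library and the lowest WT library lay close together. The means were 10293 ± 1205 CPM in *mdka*-KO and 13552 ± 1723 CPM in WT (SD, n = 3 each), and *mdka*-KO had 76.0% of the WT level (log2 fold change -0.40, SE 0.15, unadjusted p = 0.0320, adjusted p = 0.356, edgeR). The call for *myl7* was lost without *mdka*-KO replicate 3, *mdka*-KO replicate 4, WT replicate 1 or WT replicate 2, with log2 fold changes from -0.40 to -0.30 in these 4 fits.

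*tnnt2a* had 3906, 4135 and 3300 CPM in *mdka*-KO, against 5461, 4610 and 4801 CPM in WT. Again all *mdka*-KO libraries were below all WT libraries, and replicate 4 was the lowest of the *mdka*-KO libraries, as it was for *myh7l* and *myl7*. The means were 3780 ± 431 CPM in *mdka*-KO and 4957 ± 447 CPM in WT, and *mdka*-KO had 76.3% of the WT level (log2 fold change -0.39, SE 0.14, unadjusted p = 0.0223, adjusted p = 0.320, edgeR). The call was lost without *mdka*-KO replicate 4 (log2 fold change -0.31) and without WT replicate 1 (-0.32). With scaling by library size alone, which moves the median log2 fold change of all tested genes to 0.13, the values were -0.25 for *tnnt2a* and -0.26 for *myl7* and neither was called, while *myh7l* was (-0.41).

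Levels of *myl7* and *tnnt2a* correlated with those of *myh7l* over the 6 libraries. Pearson's r of the log2 levels over the 6 libraries was 0.94 for *myh7l* and *tnnt2a*, 0.90 for *myl7* and *tnnt2a*, and 0.87 for *myh7l* and *myl7*. With the genotype means removed the values were 0.78, 0.70 and 0.54. In *mdka*-KO, replicate 4 was the lowest library for all 3 genes. In WT, *myh7l* stayed between 29329 and 30121 CPM, while *myl7* fell from 15298 CPM in replicate 1 to 11853 CPM in replicate 4. As a description over the same 6 libraries, the gene closest to *tnnt2a* among 8582 genes with a symbol and at least 10 CPM was *tpm4a* (r = 0.999), a tropomyosin gene, followed by BCAT2 and ACADSB. The closest to *myl7* were *irx1a* (r = 0.998), a ventricular Iroquois transcription factor gene, *phka2* and *dlc*, and those closest to *myh7l* were *rbpms2b* (r = 0.997), which encodes an RNA-binding protein, *asb5b* and INO80C. For *vmhc* they were si:dkey-276j7.1, RNASEK and *cyb5r1*, and for *myh6* CPEB1, RASL11B and SHISA4. Between 111 and 114 genes exceeded r = 0.95 with each of *myh7l*, *myl7* and *tnnt2a*, against 30 for *vmhc* and 25 for *myh6*. These r values include the difference between genotypes, which separates the groups for *myh7l*, *myl7* and *tnnt2a* but not for *vmhc* and *myh6*. The counts therefore partly restate the calls.

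The natriuretic peptide genes *nppa* and *nppc* did not pass the test. *nppa* (ENSDARG00000052960), which encodes atrial natriuretic peptide, had 3091, 2399 and 2923 CPM in *mdka*-KO, against 3308, 2963 and 4319 CPM in WT. The highest *mdka*-KO library exceeded the lowest WT library, so the groups overlapped. The means were 2804 ± 361 CPM in *mdka*-KO and 3530 ± 705 CPM in WT (log2 fold change -0.33, SE 0.18, unadjusted p = 0.0971, adjusted p = 0.523, edgeR), and the gene was just called lower without WT replicate 2 (log2 fold change -0.45, unadjusted p = 0.0498). The genes most like *nppa* over the 6 libraries were TSPAN6 (r = 0.983), si:dkey-184p18.2 and UQCR10, and 13 genes exceeded r = 0.95.

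*nppc* (ENSDARG00000068126) had few reads in every library. It had 2.46, 1.72 and 4.28 CPM in *mdka*-KO, against 0.930, 16.8 and 3.00 CPM in WT, from 63, 37 and 86 counts in *mdka*-KO and 20, 325 and 57 counts in WT. WT replicate 2 held most of the reads, and the other WT libraries lay around the *mdka*-KO values. The log2 fold change was -1.30 (SE 0.91, unadjusted p = 0.192, adjusted p = 0.661, edgeR). It was 0.52 without WT replicate 2 and -1.82 without WT replicate 1, where *nppc* was called lower (unadjusted p = 0.0299). The genes closest to it were ANAPC1 (r = 0.983), SERINC5 and JUND.

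The gene that the name table calls *nppb*, which encodes B-type natriuretic peptide, was expressed at 1042, 323 and 811 CPM in *mdka*-KO, against 808, 1146 and 1022 CPM in WT. *mdka*-KO replicate 3 stood below the other 5 libraries, and the others overlapped between genotypes. The means were 725 ± 367 CPM in *mdka*-KO and 992 ± 171 CPM in WT (log2 fold change -0.45, SE 0.38, unadjusted p = 0.268, adjusted p = 0.734, edgeR). The ratio of *nppb* to *nppa* CPM was 0.337, 0.135 and 0.277 in *mdka*-KO, against 0.244, 0.387 and 0.237 in WT, with overlapping groups (exact permutation p = 0.6). Relative to the contractile genes, *nppa* had 12.8, 9.62 and 15.2 CPM per 100 CPM of summed heavy chain in *mdka*-KO, against 10.7, 8.96 and 12.9 in WT (exact permutation p = 0.5).

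A further natriuretic peptide gene, *nppal* (ENSDARG00000052948), stood next to *nppb* and *nppa* as 3 consecutive coding genes on chromosome 8, and it was called lower in *mdka*-KO. It had 26.4, 9.33 and 17.4 CPM in *mdka*-KO, against 37.6, 42.1 and 54.5 CPM in WT. All *mdka*-KO libraries were below all WT libraries (log2 fold change -1.34, SE 0.34, unadjusted p = 0.00491, adjusted p = 0.215, edgeR). The DESeq2 Wald test gave an adjusted p of 0.00638 for *nppal*, and no other setting tried gave one under 0.05. The call held with any 1 library left out, with log2 fold changes between -1.75 and -1.04. Per 100 CPM of *nppa*, a ratio chosen after the values were seen, *nppal* had 0.853, 0.389 and 0.595 CPM in *mdka*-KO, against 1.14, 1.42 and 1.26 CPM in WT (exact permutation p = 0.1, the smallest possible; Benjamini-Hochberg p = 0.35). Over the 6 libraries r was 0.85 for *nppb* and *nppal*, 0.85 for *nppa* and *nppal* and 0.66 for *nppa* and *nppb*. With the genotype means removed the values were 0.93, 0.76 and 0.52. In *mdka*-KO, replicate 3 was the lowest library for all 3 genes. In WT, *nppa* was lowest in replicate 2, where *nppb* was highest. *nppa* had expected counts that were not whole in all 6 libraries, so some of its reads were shared with another gene, not identified here. The counts of *nppb* and *nppal* were whole in all 6 libraries.

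**Figure D3:**
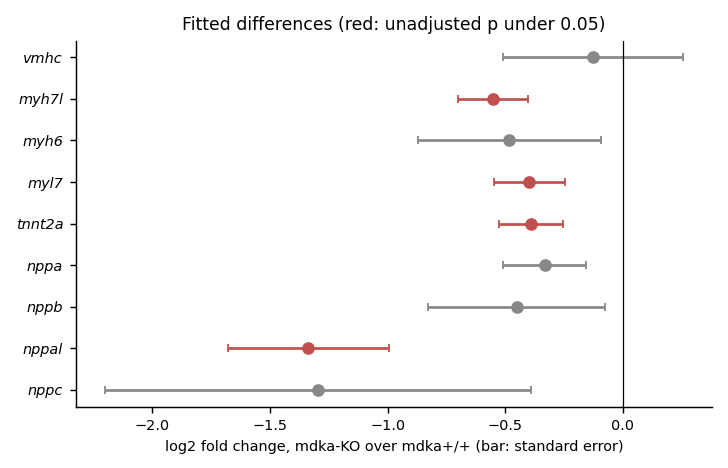
Log2 fold change of *mdka*-KO over WT (x axis) with its standard error for the 7 genes and for *nppb* and *nppal*, from edgeR; red points have an unadjusted p under 0.05. All 9 values are negative, from -1.34 for *nppal* to -0.13 for *vmhc*.

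The rest of the natriuretic system showed no call. Of 12 listed genes of this system tested, *nppal* was the 1 called lower and none was called higher, where 6.42% and 5.64% of all tested genes were. The median log2 fold change was -0.15, against -0.01 over all tested genes. The receptor *npr2*, which binds C-type peptide, had 25.8, 28.8 and 34.7 CPM in *mdka*-KO, against 22.5, 27.9 and 26.0 CPM in WT. CORIN, the protease that activates atrial natriuretic peptide, had 138, 171 and 101 CPM in *mdka*-KO, against 97.0, 150 and 183 CPM in WT. Neither gene separated the genotypes.

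Other genes of the sarcomere were more often lower than higher in *mdka*-KO. Over 4 lists of contractile genes (thick filament, thin filament, Z disc and costamere, calcium handling), 99 genes were tested, of which 41 were called lower and 4 higher, with a median log2 fold change of -0.35. Over all tested genes 6.42% were called lower and 5.64% higher, the shares to set beside these counts and those of each list below. Without the 5 contractile genes described above, 38 of 94 were called lower and 4 higher (median -0.34). Their summed level was between 54620 and 66829 CPM in *mdka*-KO and between 79350 and 84026 CPM in WT. With scaling by library size alone, 21 of the 99 were called lower and 5 higher (median -0.21, against 0.13 over all tested genes). With that scaling 2582 of 17879 tested genes were called, 19.4% of them lower. These lists were put together with earlier results of these data known.

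Of 25 thick filament genes, 13 were called lower and 1 higher (median log2 fold change -0.40). *myh7bb*, a further heavy chain gene, had 488, 448 and 378 CPM in *mdka*-KO, against 730, 589 and 799 CPM in WT (log2 fold change -0.69). The kinase gene *mylk3*, whose product phosphorylates the cardiac regulatory light chain, had a log2 fold change of -0.61, and the M-line genes *myom1b* and *myom2a*, which cross-link thick filaments at the middle of the sarcomere, had -0.61 and -0.56. The paralogs *myh7ba* (-0.58) and *cmlc1* (-0.40), a myosin light chain gene, were called lower as well. *mybpc2b* was the gene called higher, with 4.37, 2.51 and 0.199 CPM in *mdka*-KO, against 0.0465, 0.622 and 0.158 CPM in WT, and its groups overlapped.

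Of 28 thin filament genes, 11 were called lower and 1 higher (median log2 fold change -0.35). *nexn*, which encodes the actin-binding protein nexilin, had 461, 462 and 432 CPM in *mdka*-KO, against 660, 643 and 689 CPM in WT (log2 fold change -0.56). *tmod1* (-0.64), which caps the pointed end of actin, and the troponin I gene *tnni1b* (-0.53) were lower too. The tropomyosin gene *tpm4b* was higher, with 86.0, 86.5 and 78.0 CPM in *mdka*-KO, against 42.4, 51.8 and 62.8 CPM in WT (log2 fold change 0.67), while its paralog *tpm4a* was called lower. The other troponin T genes were scarce: *tnnt2c*, *tnnt2e* and a gene listed as TNNT2 (ENSDARG00000100694) had at most 4.61 CPM in any library and were not called, and *tnnt2d* did not pass the filter.

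Of 30 genes of the Z disc and costamere, the structures that anchor thin filaments and tie the sarcomere to the membrane, 10 were called lower and 2 higher (median log2 fold change -0.27). *unc45b*, a chaperone for myosin folding, had 150, 126 and 106 CPM in *mdka*-KO, against 248, 214 and 169 CPM in WT (log2 fold change -0.73). *alpk3a* (-0.59) and *myoz1b* (-0.90), a calsarcin family gene, were also lower. The small heat shock gene *cryabb* was higher, with 3.70, 5.11 and 4.63 CPM in *mdka*-KO, against 2.14, 1.71 and 1.16 CPM in WT (log2 fold change 1.42), and a gene listed as XIRP2 (ENSDARG00000091090) was called higher at levels of at most 1.76 CPM.

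Of 16 genes of calcium handling, 7 were called lower and none higher (median log2 fold change -0.38). *trdn*, which encodes triadin of the calcium release complex, had 115, 130 and 104 CPM in *mdka*-KO, against 247, 175 and 199 CPM in WT (log2 fold change -0.83). The sodium-calcium exchanger gene *slc8a1a* (-0.59), the calsequestrin gene *casq1b* (-0.62), whose product stores calcium, and the sarcalumenin gene *srl* (-0.56) were lower. A further gene listed as SRL (ENSDARG00000112959) was not called (-0.36), and its groups overlapped. The numbers of called genes depended on single libraries: without *mdka*-KO replicate 4, 6 thin filament, 6 Z disc and costamere and 4 calcium handling genes were called lower. For the thick filament list the count lay between 9 and 13 with any 1 library left out.

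**Figure D4:**
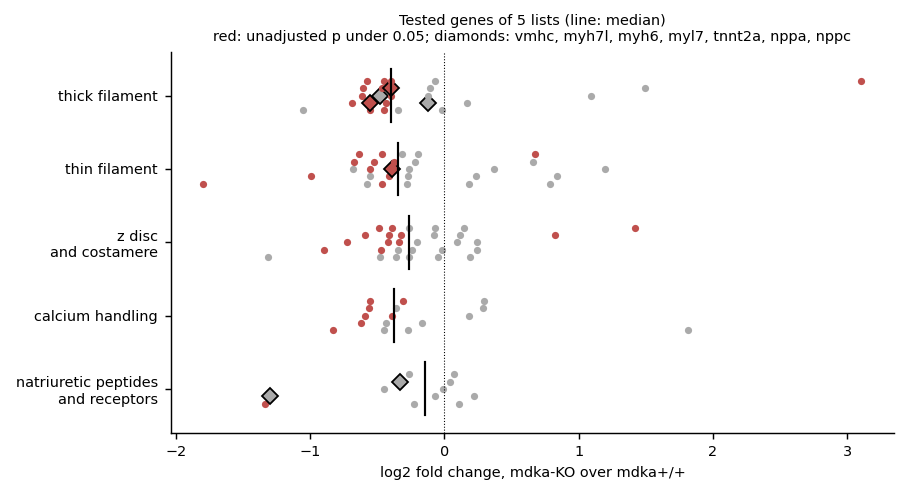
Log2 fold change of *mdka*-KO over WT (x axis) for each tested gene of 5 lists (rows); red points have an unadjusted p under 0.05, diamonds are the 7 genes followed here, and black lines are list medians. The medians are -0.40, -0.35, -0.27 and -0.38 for the 4 contractile lists and -0.15 for natriuretic peptides and receptors.

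Some markers of other cell types also differed between the genotypes in these pools, and not all in the same direction. Over all tested genes, 5.64% were called higher and 6.42% lower. The summed level of 13 fibroblast and epicardium markers was between 10799 and 13428 CPM in *mdka*-KO and between 8632 and 11318 CPM in WT. The 4 called higher were the matrix genes *postna*, *col1a1a*, *col1a1b* and *col1a2*, and none was called lower. Of the 13, 4 had negative log2 fold changes (median 0.15), and the epicardial genes *tcf21* (0.02) and *tbx18* (-0.22) were not called. That of 8 erythroid markers was between 4526 and 9960 CPM in *mdka*-KO and between 2937 and 5123 CPM in WT, with 5 of 7 tested genes called higher. *mdka*-KO replicate 4, the lowest library for *myh7l*, *myl7* and *tnnt2a*, had the highest erythroid sum. *mdka*-KO replicate 3 had an erythroid sum of 4526 CPM, inside the WT range, and its levels of *myh7l*, *myl7* and *tnnt2a* were also below all WT libraries. Of 14 endothelial and endocardial markers, 2 (*tie1* and *vwf*) were called higher and none lower, but 7 of the 14 had negative log2 fold changes (median 0.003). Their sums were between 2010 and 2371 CPM in *mdka*-KO and between 1645 and 2001 CPM in WT. *vwf* alone had a mean of 769 CPM in *mdka*-KO and 448 CPM in WT. The smooth muscle and the leukocyte lists were mixed. Their sums overlapped between genotypes, as did those of the fibroblast and epicardium list and of the erythroid list. Of 13 smooth muscle markers tested, 6 were called higher and 2 lower, with sums between 2402 and 2699 CPM in *mdka*-KO and between 2622 and 2724 CPM in WT. Of 17 macrophage and leukocyte markers tested, 5 were called higher and 2 lower. Their sums were 794, 967 and 972 CPM in *mdka*-KO, against 1245, 639 and 655 CPM in WT replicates 1, 2 and 4. The overlap of these sums rested on WT replicate 1, and the 2 genes called lower were highest in that library. The part of these cell types in the lower contractile levels was not tested.

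Transcripts of skeletal muscle varied among pools within each genotype, and most did not separate the genotypes. *myhz2*, a fast skeletal heavy chain gene, had 95.6, 14.3 and 6.13 CPM in *mdka*-KO, against 6.60, 20.9 and 5.96 CPM in WT. Replicate 2 was the highest library of each genotype for *myhz2* and for the parvalbumin gene *pvalb2*. Of 19 skeletal muscle markers tested, 1 was called, where 12.1% of all tested genes were. It was *ckma*, a muscle creatine kinase gene, called lower, with 1277, 1819 and 1724 CPM in *mdka*-KO, against 2789, 2451 and 2799 CPM in WT. The other listed markers had at most 95.6 CPM in any library. *ckma* was lowest in *mdka*-KO replicate 2, where *myhz2* was highest. Of the 19 markers, 4 had negative log2 fold changes (median 0.55), so the call of *ckma* does not stand for the list. Of 6 atrial markers tested, *tbx5a* was called lower and none higher, where 6.42% of all tested genes were called lower. Of 6 ventricular markers tested, 3 were called lower and none higher, and all 6 had negative log2 fold changes. The 3 were *irx1a* (-0.88) and *myh7l* and *nppal*, described above. The part of skeletal muscle in the value of *mybpc2b*, which was highest in *mdka*-KO replicate 2, was not tested.

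**Figure D5:**
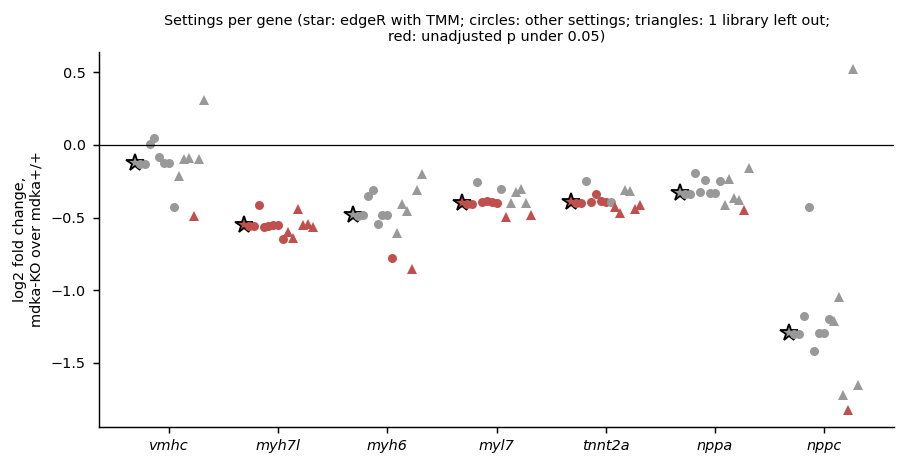
Log2 fold change of *mdka*-KO over WT (y axis) of each of the 7 genes under every setting tried; stars are edgeR with TMM, circles are other settings, triangles are fits without 1 library, and red marks an unadjusted p under 0.05. All values of *myh7l* are red and lie between -0.65 and -0.41, whereas *vmhc* and *nppc* have values on both sides of 0.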

How the data were processed

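RNA from 6 pools (3 *mdka*-KO, 3 WT) was sequenced as 60-base single reads from stranded poly(A) libraries. The authors made FASTQ files with bcl2fastq 2.20.0.422, and the submitters' processing notes also name cutadapt. They estimated expected counts per gene with RSEM on the GRCz11 transcriptome (Ensembl 99), and the deposited expected counts divide reads that fit several paralogs. Of the values, 18.7% to 20.4% per library were not whole.

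Here the expected counts were rounded and tested with edgeR 4.0.16 (R 4.3.3; filterByExpr, minimum count 10; TMM factors 1.02 to 1.07 in *mdka*-KO and 0.932 to 0.974 in WT; quasi-likelihood test without covariates; common dispersion 0.0555). Shares and ratios were compared by two-sided exact permutation. Alternatives were DESeq2 1.42.0, limma 3.58.1 voom with and without library quality weights, other scalings and filters, a replicate block, and leaving out each library. The fit was tested on simulated data. Pools are the replicates, and their number limits the precision.

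The genes and lists were chosen with earlier results of these data known. Named beyond the 7 genes are paralogs, up to 4 genes per list with the smallest p among called genes whose groups do not overlap, and the 3 genes most correlated with each. *mybpc2b*, *npr2*, CORIN, *myhz2*, *pvalb2*, XIRP2, SRL and *nppb* were named after their values were seen. Fold changes and p-values in a supplementary gene table of the study were not used, only its symbols. Positions and sequences are not printed, since no annotation or sequence of the files' build was used here, and neighbours come from RefSeq assembly GRCz12tu.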

Additional observations from a re-analysis of the deposited data

How the results depend on the processing

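*myh7l* was called lower under every alternative run, with log2 fold changes between -0.65 (replicate block) and -0.41 (library size only). With library size only, *vmhc* was at 0.0045, *myl7* at -0.26 and *tnnt2a* at -0.25, none called, and with limma-voom *vmhc* was at 0.047. Leaving out 1 library gave ranges of -0.49 to 0.31 for *vmhc*, -0.85 to -0.20 for *myh6*, -0.49 to -0.30 for *myl7*, -0.47 to -0.31 for *tnnt2a*, -0.45 to -0.16 for *nppa* and -1.82 to 0.52 for *nppc*; *vmhc* was above 0 (0.31) without WT replicate 4, and *nppc* (0.52) without WT replicate 2. The causes of these changes were not tested.

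Over all genes, 501 were called lower and 2081 higher with library size only, where 19.4% of calls were lower, against 53.2% with TMM. Leaving out 1 library gave 676 to 1380 lower and 656 to 1392 higher. Genes at an adjusted p under 0.05 numbered 1 with edgeR, 445 with DESeq2, 19 with library size only, 2 with limma-voom, 19 with quality weights, 19 with no filter, 4 with the replicate block and 0 to 3 with 1 library left out. With library size only, 6 thick filament, 7 thin filament, 4 Z disc and costamere and 4 calcium handling genes were called lower. With 1 library left out these counts lay between 9 and 13, 6 and 13, 6 and 12, and 4 and 7, and that of the natriuretic list between 1 and 2.

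The genotypes share only replicate numbers 2 and 4, whose deviations from the genotype means correlated at 0.11 and -0.01, so the numbers were not taken to pair the pools. A replicate block gave -0.78 for *myh6* (called), -0.30 for *myl7* and -0.39 for *tnnt2a* (both not called), and 1976 calls against 2157 without it. *nppc* rests on 20 to 325 counts per library.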
